A study of Drosophila melanogaster with 6 samples.

Results

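The genes described here are 7 that colour the Drosophila eye: w (white), st (scarlet), bw (brown), v (vermilion), cn (cinnabar), cd (cardinal) and kar (karmoisin). They were taken from the 11836 genes of the deposited table by their symbols, and all 7 had a row. Poly(A)-selected RNA of adult heads was sequenced in strand-specific libraries, 3 libraries from flies homozygous for the P18 mutation of Prp31 and 3 from control flies whose genotype is given as white. Prp31 is a protein of the spliceosome, needed to build the U4/U6.U5 particle, and mutations of its human counterpart cause retinitis pigmentosa, an inherited loss of photoreceptors that the study modelled in the fly. For each library the heads of 50 flies, 2 days old and raised at 25 °C, were pooled, and both sexes were used in the series. The labels do not give the sexes in each library, nor the alleles of w, st, bw or cn in the mutant flies, nor those of st, bw and cn in the controls. Effects of Prp31 and of any such background allele therefore cannot be told apart in this comparison.

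The compound eye holds 2 classes of screening pigment, the brown ommochromes and the red pteridines, stored in granules of the pigment cells and, for ommochromes, also of the photoreceptors. Ommochromes are made from tryptophan: v encodes tryptophan dioxygenase, KFase the formamidase that follows, and cn the monooxygenase that makes 3-hydroxykynurenine, while cd encodes a haem peroxidase that acts late in the route. The products of w, st and bw are ABC transporter subunits of the granule membrane that work in pairs. White pairs with Scarlet to carry ommochrome precursors and with Brown to carry pteridine precursors, so that flies without White lack both classes, and kar encodes a protein of the monocarboxylate transporter family.

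Values were FPKM, fragments per kilobase of gene and per unit of library total, so levels can be compared between genes. Column totals lay between 348791 and 402452 FPKM. The labels give only an average number of reads per library, so the depth of each library is unknown and no counting intervals were computed. White control replicate 3 stood apart: across genes its log2 values correlated at 0.9803 and 0.9785 with the other controls, which correlated at 0.996 with each other. Of 12 photoreceptor markers of the head none was at 0 in any library, and the most abundant were ninaE (the main opsin) and Arr2 (an arrestin). The summed level of the 12 was 22630 to 28830 FPKM in mutants and 19140 to 22470 FPKM in controls, and 0 of the 12 passed the test used below. Less RNA per cell and fewer cells of a type cannot be told apart in whole heads.

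Of the 7 genes, st and cd were lower in mutant heads, bw, v and kar did not pass the test, and w and cn were near the floor of the measurement in controls and higher in mutants. The test was limma on log2(FPKM + 1), with Benjamini-Hochberg adjustment over the 8465 genes whose mean reached 1 FPKM and a threshold of 0.05. It covered 5 of the 7, since w and cn had means of 0.211 and 0.402 FPKM over the 6 libraries. Of those 5, 2 were called lower and 0 higher, beside 7.81% of all tested genes called lower, 3.53% called higher and 11.3% called in either direction. The median log2 fold change of all tested genes was -0.066. All fold changes below refer to log2(FPKM + 1), a scale that makes changes of low genes look smaller than they are. The labels do not tell whether libraries stem from separate cultures, so p-values describe only the spread among these samples, which may be technical.

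**Figure D1:**
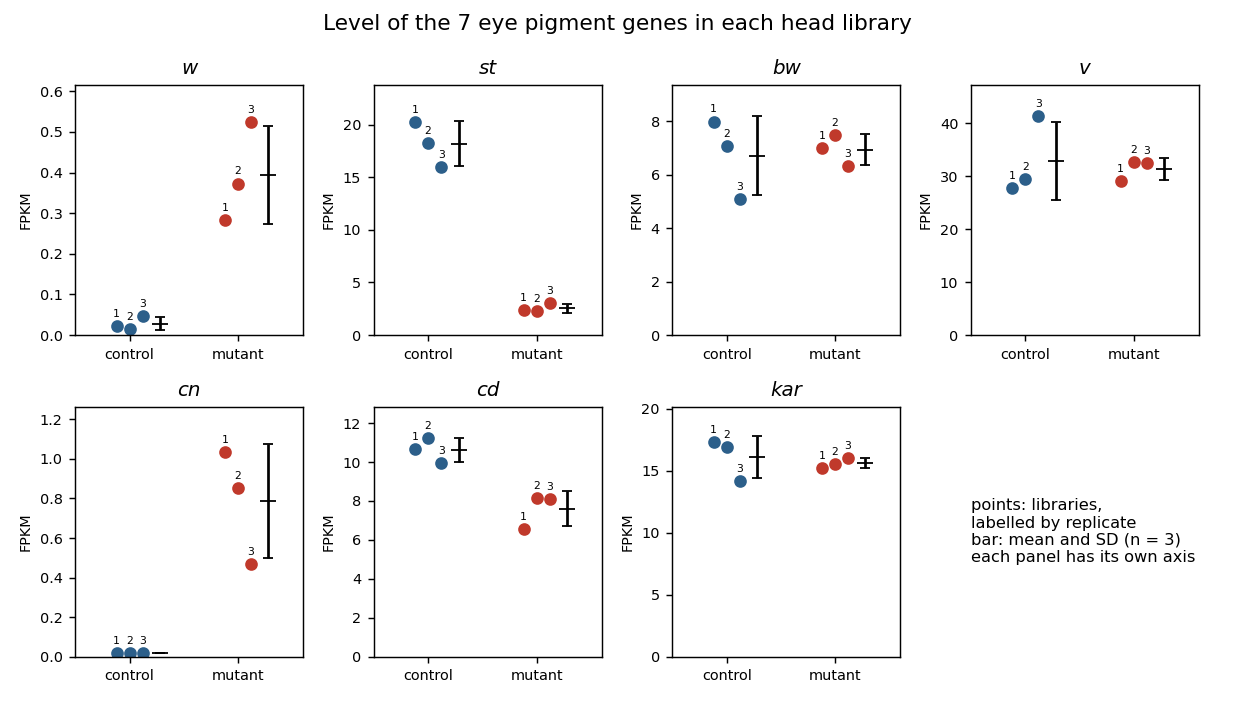
FPKM of each gene (vertical axis, from 0, scaled per panel) in the control and mutant libraries, 1 point per library with its replicate number, beside the mean and SD of 3 libraries. The st points of the mutants, at 2.28 to 3.01 FPKM, lie far below those of the controls, at 16.0 to 20.3 FPKM, while w and cn lie near 0 in the controls.

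The gene w (FBgn0003996, X, 2790599 to 2796466, minus strand, build BDGP6) has 6 exons with 2352 bases in the annotation used here. In control libraries 1, 2 and 3 it had 0.023, 0.015 and 0.046 FPKM. In mutant libraries 1, 2 and 3 it had 0.284, 0.373 and 0.524 FPKM. The groups did not overlap, and the highest control value was below the lowest mutant value. If every read of the labels' average library size, 28000000, had been counted, 1 read on w would be worth 0.0152 FPKM, so the control values lie near the worth of single reads. Controls labelled white thus had almost no w transcript in this table, and the mutant level was also far below that of the other transporters. Of all 11836 genes, 8.8% had every mutant value above every control value.

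The mean level of w was 0.394 ± 0.121 FPKM in mutants (mean ± SD, n = 3) and 0.0280 ± 0.0161 FPKM in controls, a ratio of 14.1 for which no counting interval can be given. By its mutant mean w ranked above 22.0% of all genes in the table, and by its control mean above 4.75%. With no filter on low genes, limma gave a log2 fold change of 0.44 (SE 0.07, adjusted p = 0.0116 over 11836 genes). In that fit 2.79% of all genes were called higher and 5.84% lower, and its calls among the 7 were w and cn higher and st and cd lower. The call of w was lost in it without white control replicate 1 (adjusted p = 0.0553) or 2 (0.084). An exact permutation test of the 6 values, two-sided, gave p = 0.1, the smallest that 3 against 3 libraries allow.

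The annotation places all of w within the span of kirre, a cell adhesion gene on the opposite strand, with 0 exonic bases shared. The level of kirre was 0.0800 ± 0.00794 FPKM in mutants and 0.103 ± 0.0124 FPKM in controls (n = 3 each), below the filter. CG32795, which lies 32 bases beyond the end of w on the same strand, had a log2 fold change of 0.12 (adjusted p = 0.273 by limma). CG12498, the next gene on the other side, was not analysed here.

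The largest change among the tested genes of the set was that of st (FBgn0003515, 3L, 16497651 to 16500460, plus strand). Its level was 20.3, 18.3 and 16.0 FPKM in control libraries 1, 2 and 3. In mutant libraries 1, 2 and 3 it was 2.34, 2.28 and 3.01 FPKM. Every mutant value lay below every control value, while 31.2% of tested genes had groups that did not overlap, counting both directions. The mutant mean of st was 14.0% of the control mean. The log2 fold change was -2.44 (95% interval -2.70 to -2.17, SE 0.11, limma adjusted p = 2.27e-05), the 13th largest decrease among 8465 genes. It remained called under each of the 16 alternatives in which it was tested, with values between -2.79 and -2.36. By level st ranked above 77.8% of all genes in controls and above 38.4% in mutants.

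Prp31 itself lies 1.34 Mb from st on 3L and had 13.5, 14.2 and 13.6 FPKM in the mutants and 13.8, 14.0 and 14.0 FPKM in the controls. The ranges of the groups overlapped. The labels do not state which part of the gene P18 changes, so the level of its transcript is no check of the genotype. The 7 exons of st, with 2146 bases, lie inside CG43373, a gene of the opposite strand, again with 0 exonic bases shared. CG43373 had 0.690 ± 0.145 FPKM in mutants and 0.897 ± 0.0556 FPKM in controls, below the filter. The nearest gene before st, CG33158, ends 1091 bases away and had 0.153 ± 0.00208 and 0.183 ± 0.0233 FPKM. CG13033, the next gene after it, was not analysed here.

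Within 100 kb of the start of st the annotation has 27 other genes, of which 22 were in the table and 15 were tested. Of these 15, 1 was called lower and 0 higher, beside 7.81% of all tested genes called lower and 3.53% called higher. Their log2 fold changes ran from -0.48 to 0.25, with a median of -0.10, beside -0.066 for all tested genes. The gene called was CG42514, which starts 1.4 kb before st on the opposite strand, at -0.36 (SE 0.08, limma adjusted p = 0.0273). Adjusted p rose to between 0.073 and 0.112 when mutant replicate 1 or 2 or control replicate 1 or 2 was left out, or with the libraries rescaled by median ratio or quantile normalization. Below the filter, Apl had 0.493 ± 0.0493 FPKM in mutants and 1.45 ± 0.0382 FPKM in controls, a gene picked out after its values were seen. No tested gene of the window had a change near that of st.

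**Figure D2:**
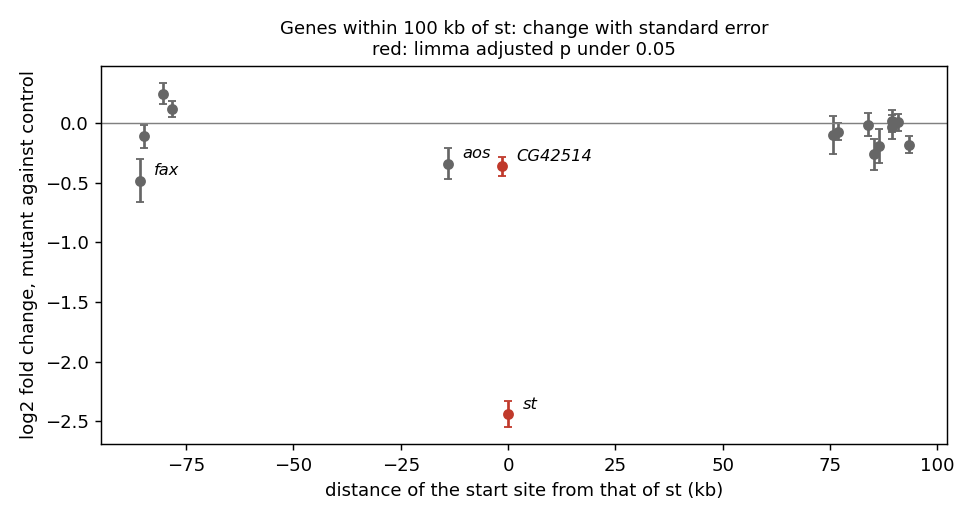
Log2 fold change (vertical axis, with standard error) of the tested genes whose start site lies within 100 kb of that of st, against distance in kb; red marks an adjusted p under 0.05. The 15 neighbours lie between -0.48 and 0.25, and st at -2.44.

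The remaining transporter of the trio, bw (FBgn0000241, 2R, 23527805 to 23538499, minus strand), did not pass the test. It had 7.99, 7.08 and 5.09 FPKM in control libraries 1, 2 and 3. The mutant libraries had 6.99, 7.48 and 6.33 FPKM, all within the range of the controls, of which replicate 3 was the lowest. The log2 fold change was 0.06 (95% interval -0.28 to 0.39, limma adjusted p = 0.835), and it was -0.11 without control replicate 3. bw shares 456 exonic bases with mi on the opposite strand, which had a log2 fold change of 0.09 (adjusted p = 0.592), and the sources do not tell if counting used strand. Its flanking gene RabX1, a Rab-related GTPase gene, gave no call either (-0.16, limma adjusted p = 0.236). The other flanking gene, ppk3 of the pickpocket channel family, was below the filter and not tested. It had 0.0260 ± 0.0113 FPKM in mutants and 0.0263 ± 0.0127 FPKM in controls.

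The proportion of st to bw differed between the groups by more than the spread of the libraries. The level of st relative to bw was 2.53, 2.58 and 3.14 in controls 1, 2 and 3 and 0.335, 0.304 and 0.476 in mutants 1, 2 and 3. In every control library st exceeded bw, and in every mutant library bw exceeded st. The difference in the log2 ratio was -2.91 (mutant minus control), with SDs of 0.34 in mutants and 0.17 in controls, and an exact permutation test over samples, two-sided, gave its smallest possible p of 0.1. Relative to w, st was at 5.74 to 8.24 in the mutants and 347 to 1220 in the controls, and bw at 12.1 to 24.6 and 111 to 472. The control ratios rest on w values near single reads and are given for their order only.

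Among the enzymes, v (FBgn0003965, X, 10923972 to 10925631, plus strand) was the most abundant gene of the set in both groups. It had 27.8, 29.4 and 41.4 FPKM in control libraries 1, 2 and 3. The mutant libraries had 29.1, 32.6 and 32.5 FPKM, within the control range, with control replicate 3 above all others. The log2 fold change was -0.04 (95% interval -0.39 to 0.30, limma adjusted p = 0.872), and it was 0.13 without control replicate 3. That library also had the highest control sum of 7 fat body markers, led by the yolk protein genes Yp1 and Yp3, at 19830 FPKM beside 3729 and 4139 FPKM in controls 1 and 2. Mutant libraries 1, 2 and 3 had 20440, 17460 and 46490 FPKM, so replicate 3 had the highest sum in both groups. As the sexes in each library are not given, sex and fat body content cannot be told apart in this sum. The part of these markers in the level of v was not tested. The neighbours of v, CG43901 and CG2145, had log2 fold changes of -0.12 and 0.18 (adjusted p = 0.571 and 0.268).

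The second enzyme, cn (FBgn0000337, 2R, 7782797 to 7785067, minus strand), was almost unmeasured in controls. It had 0.019, 0.019 and 0.017 FPKM in control libraries 1, 2 and 3, where 1 read would be worth 0.0200 FPKM under the same assumption as for w. In mutant libraries 1, 2 and 3 it had 1.04, 0.852 and 0.470 FPKM. The groups did not overlap, and the lowest mutant library was replicate 3, which had the highest w value. The means were 0.786 ± 0.289 and 0.0183 ± 0.00115 FPKM, a ratio of 42.9 with no counting interval.

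Without a filter cn had a log2 fold change of 0.80 ± 0.11 (SE; adjusted p = 0.0101 by limma over 11836 genes), and its call was lost without white control replicate 2 (adjusted p = 0.0869). With a pseudocount of 0.1, an alternative chosen after seeing the data, the changes became 2.85 for cn and 1.93 for w (limma adjusted p = 0.00157 and 0.00418). Among the 3371 genes below the filter, w and cn included, 7.12% had every mutant value above every control value, and 2.55% were called higher in the fit with no filter. cn shares 1229 exonic bases with asRNA:CR45108, a noncoding gene on the opposite strand that was not analysed here, so reads of this pair may not be told apart. The flanking gene CanB2, a calcineurin subunit gene, had a log2 fold change of -0.14 (adjusted p = 0.269). CG46385, on the other side, was not analysed here.

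The late enzyme cd (FBgn0263986, 3R, 22694959 to 22697990, plus strand) was lower in mutants by a small amount. It had 10.7, 11.2 and 9.97 FPKM in control libraries 1, 2 and 3 and 6.58, 8.16 and 8.10 FPKM in the mutants. All mutant values lay below all control values. Of all tested genes, 31.2% had groups that did not overlap, counting both directions. The mutant mean was 71.7% of the control mean, and the log2 fold change was -0.44 (95% interval -0.66 to -0.21, limma adjusted p = 0.0284). It did not pass without mutant replicate 1 (adjusted p = 0.0575) or 3 (0.0604), nor without control replicate 1 (0.104) or 2 (0.102). Nor did it pass with median-ratio scaling (-0.35, 0.0939) or quantile normalization (-0.36, 0.0845).

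The gene after cd on the same strand, Cyp6d4, a cytochrome P450 gene 329 bases away, was lower as well, with 5.95 ± 0.360 FPKM in mutants and 10.9 ± 0.348 FPKM in controls. Its log2 fold change was -0.77 (SE 0.07, limma adjusted p = 0.000774), and the call held under all 16 alternatives. Nup133, a nuclear pore gene 187 bases before cd, had a log2 fold change of -0.03 (adjusted p = 0.839).

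kar (FBgn0001296, 3R, 12682186 to 12689367, minus strand) had 17.3, 16.9 and 14.2 FPKM in controls 1, 2 and 3 and 15.3, 15.5 and 16.1 FPKM in mutants 1, 2 and 3. The mutant libraries, with an SD of 2.60% of their mean, lay within the control range. The log2 fold change was -0.04 (95% interval -0.25 to 0.17, limma adjusted p = 0.815). Its neighbours Cyp313a4, a cytochrome P450 gene, and Su(fu), a regulator of Hedgehog signalling, had changes of 0.01 and 0.15 (adjusted p = 0.967 and 0.242).

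**Figure D3:**
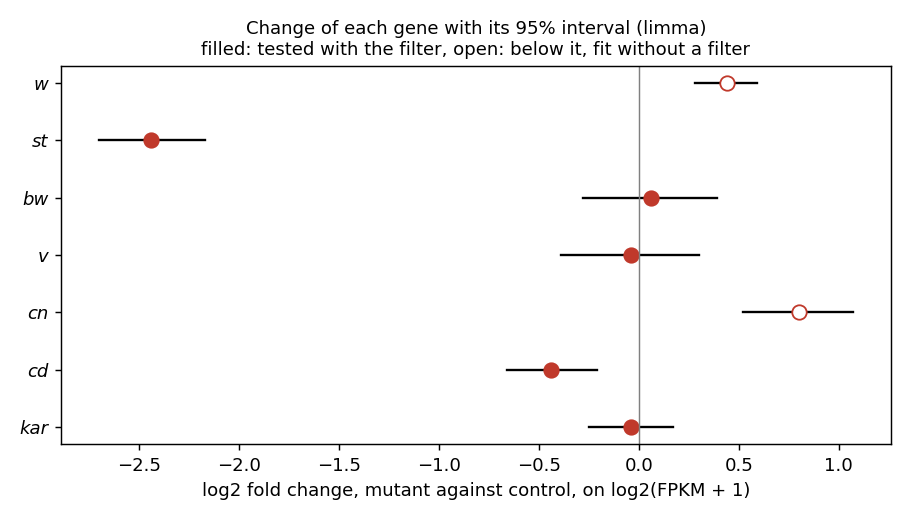
Log2 fold change of each of the 7 genes, mutant against control, on the log2(FPKM + 1) scale, with its 95% interval from limma; open points, w and cn, are below the filter and come from the fit without it. The intervals of bw, v and kar include 0, and st stands at -2.44.

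Ordered by level per length, the controls ran v, st, kar, cd, bw, w, cn and the mutants v, kar, cd, bw, st, cn, w. In the controls the ranges of st and kar overlapped, as did those of w and cn, while all other neighbours in the order were separate. In the mutants cd and bw overlapped, and so did cn and w. st went from place 2 to place 5. The level of cd relative to v was 0.241 to 0.383 in controls and 0.226 to 0.250 in mutants (log2 difference -0.44, exact permutation p = 0.3, two-sided). That of kar to v was 0.342 to 0.621 and 0.476 to 0.525 (log2 difference 0.00, exact permutation p = 1). That of cn to v differed by 5.39 on the log2 scale (exact permutation p = 0.1), again with controls near single reads.

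**Figure D4:**
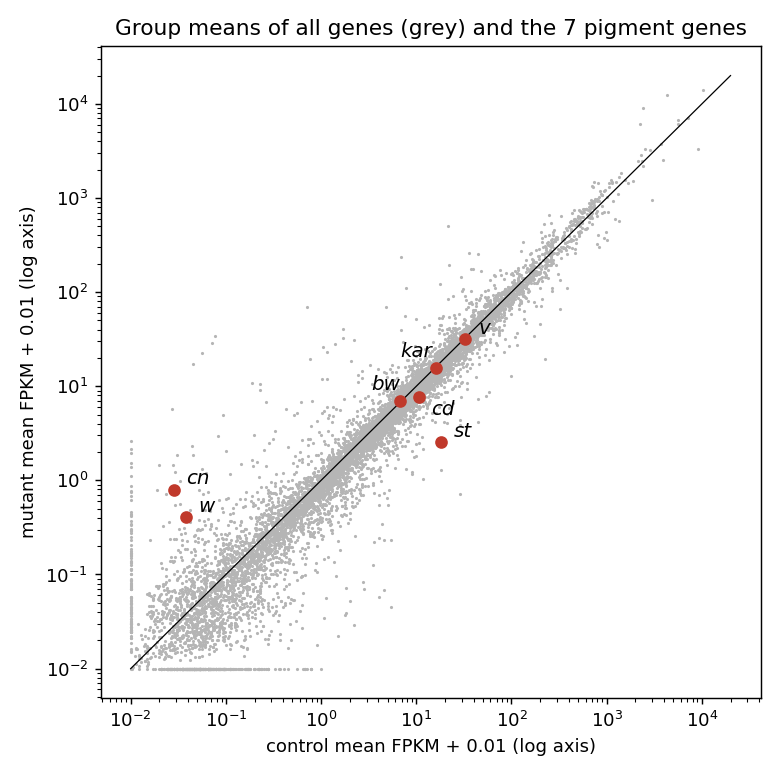
Mean FPKM of each gene in controls (horizontal) and mutants (vertical), both on log axes with 0.01 FPKM added; grey points are all 11836 genes, red points the 7 pigment genes, and the line marks equal levels. v, kar and bw lie at the line, cd a little and st far below it, and w and cn above it at low levels.

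Other genes of the tryptophan and ommochrome route were few. Of 4 tested, 1 fell and 0 rose, with a median log2 fold change of -0.11. For this list and those below, the shares over all tested genes were 7.81% called lower and 3.53% called higher, with a median of -0.066. KFase, the formamidase between the steps of v and cn, had 28.1, 30.8 and 29.6 FPKM in the mutants and 52.0, 50.0 and 40.2 FPKM in controls 1, 2 and 3. All mutant values were below all control values, beside 31.2% of tested genes whose groups did not overlap in either direction. The log2 fold change of KFase, -0.66 (SE 0.11, limma adjusted p = 0.00956), remained called under all 16 alternatives. CG6950, named Kyat in RefSeq, a kynurenine aminotransferase, had -0.01 (0.936). Trh, the tryptophan hydroxylase gene of serotonin synthesis, had -0.21 (0.216), and Hn, the phenylalanine hydroxylase gene, 0.52 (0.152). This list had 1 higher and 1 lower without white control replicate 3, with library weights and with the replicate number as a block. Without white control replicate 3, 838 of all 8465 tested genes were called higher and 1383 lower. The counts of the lists below without that library stand beside these.

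In the ABCG family of w, st and bw, 12 other genes were tested, 1 fell and 0 rose, with a median of 0.01. Atet, an ABC transporter of the trachea, fell by 0.39 on the log2 scale (limma adjusted p = 0.0163), but with mutant replicate 1 or 3 or control replicate 1 left out it did not pass (0.0506 to 0.0851). With a library left out, 0 to 4 members of this family were called, and the 4, 1 higher and 3 lower, came without control replicate 3. In that fit 838 of all 8465 tested genes were called higher and 1383 lower. The lowest change among these 12 was -0.41, that of CG11069 (adjusted p = 0.0682), beside -2.44 for st.

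Of 6 tested haem peroxidases besides cd, 3 fell and 1 rose, beside 7.81% of all tested genes called lower and 3.53% called higher. Their median was -0.46. CG10211 (-0.93, limma adjusted p = 0.00242) was called under all 15 alternatives in which it was tested. The dual oxidase gene Duox (-0.78) and Pxd (-0.67) did not pass with mutant replicate 1 or 3 or control replicate 1 left out (0.0519 to 0.0548 for Duox, 0.113 to 0.148 for Pxd), nor did Pxd without control replicate 2, with no filter or under both rescalings. Irc, an immune-regulated catalase, rose (0.43, adjusted p = 0.0356), and did not pass with any library but control replicate 3 left out (0.0857 to 0.146). Without a library 1 to 5 members were called, 5 of them without control replicate 3.

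Of 10 tested monocarboxylate transporter genes besides kar, 2 fell and 0 rose, with a median of -0.23. They were Mct1 (-0.76, limma adjusted p = 0.0163) and CG13907 (-0.63, 0.0163). With mutant replicate 1 or 3 or control replicate 1 or 2 left out neither passed (0.0511 to 0.0679 and 0.0593 to 0.0657). Without a library 0 to 3 members were called, 3 without control replicate 3.

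In the pteridine route, whose precursors Brown and White carry, 2 of 10 tested genes fell and 0 rose, with a median of -0.17. Pu, the GTP cyclohydrolase gene, had 57.2 to 70.2 FPKM in mutants and 94.7 to 161.5 FPKM in controls, and se, a drosopterin enzyme gene, 120.1 to 139.4 and 186.8 to 223.8 FPKM. The limma adjusted p were 0.0165 and 0.0103. Pu did not pass with mutant replicate 1 or 3 or control replicate 1 or 2 left out (0.0533 to 0.0729), nor se without control replicate 1 (0.0515). The counts with a library left out ran from 0 without control replicate 1 to 5 without control replicate 3. Of 16 tested genes of pigment granule trafficking 0 were called, with a median of -0.03. The most abundant were VhaAC39-1, a proton pump subunit gene (-0.23, adjusted p = 0.221), and ltd, the Rab32 gene of the granules, with 54.9 to 77.5 FPKM in mutants and 61.6 to 117.3 FPKM in controls (-0.48, adjusted p = 0.271). Without control replicate 3 the granule list had 2 lower and 0 higher.

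**Figure D5:**
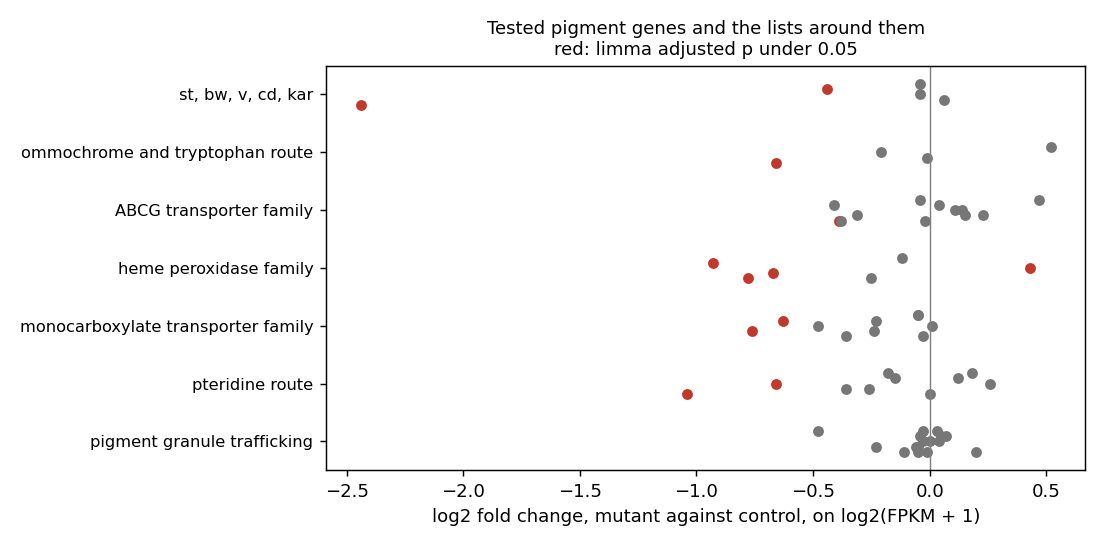
Log2 fold change, mutant against control, of the 5 tested pigment genes (top row) and of the tested members of 6 lists of related genes, 1 point per gene; red marks a limma adjusted p under 0.05. st lies at -2.44, and the lowest gene in the other rows, Pu, at -1.04.

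Calls among markers of other cells of the head stand beside 7.81% of all tested genes called lower and 3.53% called higher. In the list of pigment cell, cone cell and lens genes, Pdh, a dehydrogenase gene of pigment cells, had a log2 fold change of 0.08 (adjusted p = 0.84) and the lens gene retinin -0.57 (0.31). The crystallin gene Cry was the 1 of these 4 called, at -2.04 (limma adjusted p = 0.00127), under all 16 alternatives. Cpr72Ec, a cuticular protein gene, was at 0.65 (limma adjusted p = 0.303), with 405 ± 174 FPKM in mutants and 246 ± 74.3 FPKM in controls. The summed level of the 4 was 5127 to 5890 FPKM in mutants and 4547 to 7807 FPKM in controls, with none at 0. Of 5 glial markers alrm, an astrocyte gene, fell (-0.69, 0.0179), and did not pass with any library but control replicate 3 left out (0.053 to 0.0712). The glial sum, led by Gs2 and alrm, was 437 to 505 FPKM in mutants and 499 to 661 FPKM in controls. Of 5 neuronal markers, led by nSyb and Syt1, 0 were called, with sums of 137 to 178 and 169 to 203 FPKM. Of the 5 tested fat body markers 0 were called, but their median log2 fold change was 1.83. Yp1 was at 1.83 (limma adjusted p = 0.132), Yp2 at 1.48 (0.182), Yp3 at 2.66 (0.103), Lsp2 at 3.80 (0.0905) and Rfabg at 0.56 (0.326). Below the filter, Fbp1 had 0.527 ± 0.400 FPKM in mutants and 0.823 ± 1.21 FPKM in controls. Fbp2 had 0.486 ± 0.474 FPKM in mutants and 1.07 ± 1.68 FPKM in controls. The sum of all 7 fat body markers, led by the yolk protein genes, was 17460 to 46490 FPKM in mutants and 3729 to 19830 FPKM in controls. With the sexes in each library not given, sex and fat body content cannot be told apart in it. Of the 5 Malpighian tubule markers found, 2 were tested, Oatp58Dc and Irk3, and 0 called, with sums of 23.2 to 24.5 and 25.1 to 28.8 FPKM and up to 2 of the 5 at 0 in a library. The part of these markers in the changes of st and cd was not tested.

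The genes most like st over the 6 libraries, by Pearson correlation of log2 values among 8464 other genes, were CG6908 (r = 0.9997), the thiol reductase gene GILT3 (0.9983), the odorant binding protein gene Obp99d (0.998) and CG10352 (0.9972). Of these, 3 lie on 3R and CG10352 on the X. The mutant and control means were 8.60 and 58.1 FPKM for CG6908 and 1.29 and 18.1 FPKM for GILT3. Over 6 libraries in 2 groups many genes reach such values, and 272 genes correlated with st above 0.95. Those most like w were CG3699 (0.9938), CG43920 (0.9924), CG6852 (0.9916) and Obp49a (0.9914), and this list shared 0 of 4 genes with the lists made with a pseudocount of 0.1 or with median-ratio scaling. The genes most like bw, v, cn, cd and kar were CG40485 (0.9911), CG3909 (0.9984), CG10353 (0.992), CG12655 (0.9972) and CG31195 (0.9886), each replaced by another gene with median-ratio scaling, while the 4 genes most like st were kept.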

How the data were processed

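The deposited values are FPKM for each gene and library, computed by the authors, and replicates have separate columns. Strand-specific libraries of poly(A) RNA went through 15 PCR cycles and were read from 1 end over 75 bases, per the labels' protocols. Per the submitters' processing notes, CASAVA 1.8, STAR 2.5.2b and the build BDGP6 were used. Not given in the sources used here are the FPKM tool, annotation release, strand handling and filters.

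Columns were matched to samples by title. Positions and exons come from the Ensembl annotation of BDGP6, in which 11630 of 11836 identifiers were found. limma 3.58.1 in R 4.3.3 was fitted to log2(FPKM + 1) with a variance trend, without a replicate term, over genes whose mean reached 1 FPKM, and was tested on simulated data. Exact permutation tests used scipy 1.17.1. No sequence was used. Symbols of the 6 lists and the marker lists were matched to the table directly or through RefSeq synonyms. Left out for want of a match were sln, CG3409, chk and Targ (monocarboxylate transporters), CG4009 (haem peroxidases) and Uro (Malpighian tubule).

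The members, lists, tests and alternatives were chosen with earlier results of these data known. Named genes were the 7 members, Prp31, up to 4 called genes per list (or the 2 most abundant), and overlapping and adjacent genes. Also named were the most correlated genes (4 for st and w, 1 for the others) and the 2 most abundant markers of each list. CG42514, Apl, CG11069, Cry, Cpr72Ec, alrm, Trh, Hn, Yp2, Lsp2, Rfabg, Fbp1 and Fbp2 complete a count or were picked after their values were seen.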

Additional observations from a re-analysis of the deposited data

How the results depend on the processing

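Of the 7 genes, 2 were called in the main comparison. The number was 4 with no filter, since w and cn then entered (also 4 with no filter and a pseudocount of 0.1), and 1 with median-ratio scaling or quantile normalization, which lost cd. It stayed at 2 with a replicate block, as did the calls of st (adjusted p = 0.000417) and cd (0.0334). With each library left out it was 1 to 2, and with no filter as well 1 to 4, lowest without white control replicate 2. Over all genes 960 were called, 1142 with the replicate block, 629 with a filter of 5 FPKM, 3298 with library weights, and 412 to 2221 with a library left out, lowest without white control replicate 1 and highest without white control replicate 3. The split of 299 higher and 661 lower became 374 and 435 with median-ratio scaling and 384 and 467 with quantile normalization. With library weights 1128 of all 8465 tested genes were called higher and 2170 lower. In that fit the lists had 1 higher and 3 lower (ABCG), 1 and 4 (haem peroxidases) and 0 and 6 (monocarboxylate transporters). The pteridine route had 2 and 5 and the pigment granules 1 and 2. The replicate block gave the tryptophan route 1 higher and 1 lower and the monocarboxylate transporters 0 and 3, and a filter of 5 FPKM left 1 call each among haem peroxidases and monocarboxylate transporters. Changes not called turned sign in places. bw gave -0.08 with library weights and -0.11 without control replicate 3. v gave 0.04 with median-ratio scaling, 0.00 with quantile normalization, 0.15 with library weights, 0.01 without mutant replicate 1 and 0.13 without control replicate 3. kar gave 0.05 and 0.02 with these scalings and 0.01 without control replicate 1. With a library left out bw ranged from -0.11 to 0.18, v from -0.15 to 0.13 and kar from -0.12 to 0.01. Apart from fewer genes or samples in a fit, the cause was not tested. Same-numbered libraries of the 2 groups deviated together with correlations of -0.0113, 0.2103 and 0.3182 for replicates 1, 2 and 3. Between libraries of unlike number the correlations ran from -0.3095 to 0.3098, so the value for replicate 3 was the highest. Whether same-numbered libraries share a factor was not tested. The main fit did not take the numbers as pairs, and the replicate block is given as an alternative. The values of w and cn in controls are near the worth of single reads under the assumed library size, and the cause was not tested.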
